A study of Mus musculus with 2 samples.

Results

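The liver mRNAs of 9 genes of the methionine cycle and of phosphatidylcholine methylation were compared between HFD-fed mice that received AAV-GFP and HFD-fed mice that received AAV-*Wee1-AS*. The genes were *Mat1a*, *Mat2a*, *Gnmt*, *Ahcy*, *Bhmt*, *Cbs*, *Cth*, *Pemt* and *Shmt1*, chosen by name from the 45777 gene symbols in the deposited transcript table, and all 9 had rows in it. Both groups were C57BL/6 mice that started a high-fat diet (HFD) at 7 weeks of age, were kept on it for 18 weeks, and were given the virus through the retro-orbital route at week 13 of the diet. The sample labels do not give this age and these weeks, which were taken from the description of such mice in the text of the study. That text gives the mice as C57BL/6 N, while the labels read C57BL/6. One group overexpressed GFP and the other overexpressed *Wee1-AS*, a long noncoding RNA that is antisense to *Wee1*. According to the methods of the study, the AAV-*Wee1-AS* vector carried the CMV promoter, which is not limited to hepatocytes. GEO's text for the series mentions 4 livers, while 1 library of poly-A RNA per group was analysed here, with totals of 55466182 (AAV-GFP) and 48079335 (AAV-*Wee1-AS*) estimated counts. No spread between mice could be estimated, so no p-value is given, and every ratio compares 2 libraries rather than 2 conditions. *Wee1-AS* itself was not analysed here.

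The methionine cycle turns methionine into S-adenosylmethionine (SAM), the methyl donor of most cellular methylation reactions. Each methyl transfer leaves S-adenosylhomocysteine, which is split to homocysteine, and homocysteine is either methylated back to methionine or passed through cystathionine to cysteine, glutathione and taurine. The liver is the main site of this cycle, and one of its large consumers of SAM is the methylation of phosphatidylethanolamine to phosphatidylcholine, a lipid needed to export triglyceride in very low density lipoproteins.

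None of the 9 genes passed 2-fold in either direction. Counts scaled by the TMM method were higher in the AAV-*Wee1-AS* library for 7 genes, by 1.13-fold (*Shmt1*) to 1.55-fold (*Cth*), and lower for *Cbs* (a change of -31.0%) and *Pemt* (-34.6%). Of the 15857 genes that reached 10 counts in either library, 22.5% had a ratio above 2 and 8.43% a ratio below 0.5. Expressed as log2 of AAV-*Wee1-AS* divided by AAV-GFP, the 9 genes had a median of 0.23, against -0.00205 over all genes, for which the middle 50% ran from -0.55 to 0.89. The 95% counting intervals of all 9 genes lay to one side of a ratio of 1, but at this depth so did those of most genes (39.6% wholly above 1 and 37.4% wholly below 1). These exact Clopper-Pearson intervals cover counting error only.

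The ratios of all genes followed the GC content of their transcripts. Over 15112 genes with a GC content, the Spearman coefficient was -0.688, given as a description across genes of the same 2 libraries. When these genes were split by GC content into 10 deciles, the median log2 ratio was 1.52 in the lowest decile and -0.68 in the highest. Each ratio of the 9 genes is therefore given below a second time, after lowess fits against GC content and transcript length were subtracted (trends removed). On that scale 6.58% of the genes were above 2-fold and 7.51% below 0.5-fold, 1 of the 9 genes (*Gnmt*) passed 2-fold, the directions of *Mat2a*, *Cbs*, *Cth* and *Pemt* turned, and the median of the 9 genes was 0.11. Whether the trend came from the libraries or from the livers cannot be told apart with 1 library per group.

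Before the ratios, the levels were set side by side in TPM, a unit that corrects for transcript length. *Gnmt* (1973 TPM), *Bhmt* (1950 TPM), *Mat1a* (1839 TPM) and *Ahcy* (1051 TPM) led in the AAV-GFP library, and these 4 genes held 82.8% of the summed TPM of the 9. *Pemt* (679 TPM) and *Cbs* (459 TPM) came next, followed by *Shmt1* (138 TPM), *Cth* (108 TPM) and *Mat2a* (27.1 TPM). The levels thus spanned 72.7-fold within 1 library, far more than any of the 9 genes differed between the libraries. In the AAV-*Wee1-AS* library the order was the same except that *Bhmt* stood above *Gnmt* and *Cth* above *Shmt1*, 2 pairs of neighbours. With no replicate, it cannot be said which neighbours in this order differ beyond the spread between mice. The summed level of the 9 genes was 8224 TPM with AAV-GFP and 9274 TPM with AAV-*Wee1-AS*.

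**Figure D1:**
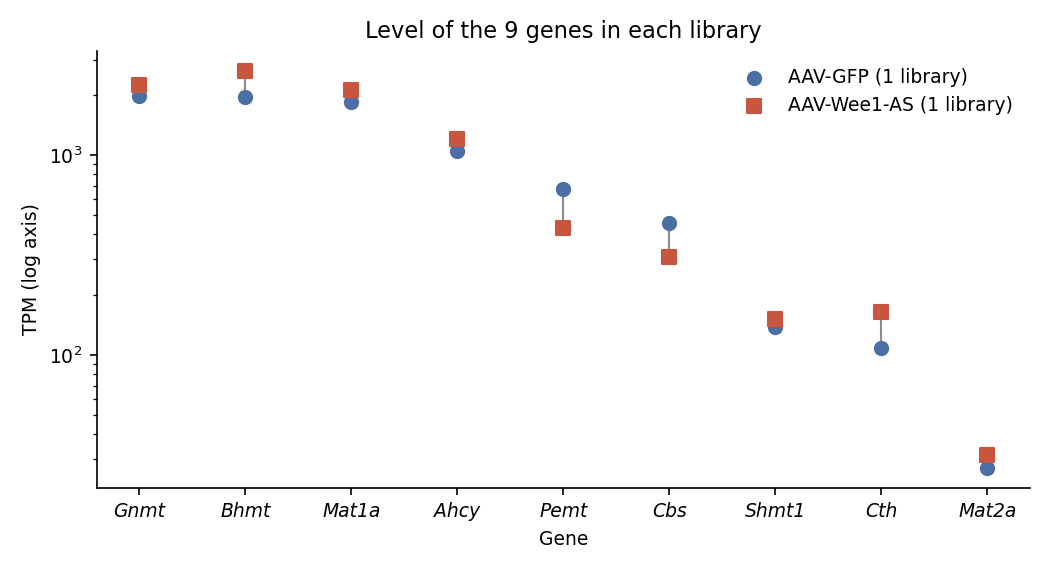
Level of the 9 genes in TPM (log axis) with AAV-GFP (circles) and AAV-*Wee1-AS* (squares), ordered by the level with AAV-GFP, with 1 library per group and no error bars. The gap between the symbols of a gene is small beside the 72.7-fold span from *Gnmt* to *Mat2a*, and the square lies below the circle for *Pemt* and *Cbs* only.

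The synthesis of SAM is carried out by methionine adenosyltransferases. *Mat1a* (NCBI gene 11720, chr14:41105012-41124428 in mm10), which encodes the catalytic subunit of the adult hepatocyte, had 206316 counts with AAV-GFP and 201740 with AAV-*Wee1-AS*. After scaling, this was a log2 ratio of 0.25 (interval 0.24 to 0.25), or 0.11 with the trends removed. It was 0.40 when curated RefSeq transcripts alone were counted and 0.08 with the length trend alone removed. *Mat2a* (gene 232087, chr6:72432796-72439556), which encodes the subunit of most other tissues and of dedifferentiated or proliferating hepatocytes, had 2544 and 2522 counts and a log2 ratio of 0.27 (interval 0.19 to 0.35). The liver form was far more abundant in both libraries. The ratio of *Mat1a* to *Mat2a*, in TPM, was 67.7 with AAV-GFP and 67.4 with AAV-*Wee1-AS*, and the ratio of these ratios, from counts, was 0.986 (interval 0.933 to 1.04). That balance was not kept on the other scale. *Mat2a*, at 44.8% GC, lay in a GC decile with a median log2 ratio of 0.74, and *Mat1a*, at 49.8%, in one with a median of 0.13. With the trends removed the log2 ratio of *Mat2a* was -0.58 and the ratio of the ratios was 1.62.

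*Mat2a* mRNA is known to be regulated through sites in its 3′ UTR that are bound by METTL16, a SAM-dependent RNA methyltransferase, by which the cell adjusts splicing and stability of the mRNA to its SAM level. The sites are shown because, of the 9 genes, only the searched transcript of *Mat2a* held them. The letters TACAGAGAA and TACAGAAAA were searched in the sense strand of 1 GENCODE transcript for each of 15112 genes. The *Mat2a* transcript, of 2804 bases, held 6 matches (5 and 1), all in the 3′ UTR within exon 9 of 9, the transcripts of the other 8 genes held 0, and 7.07% of the searched transcripts held at least 1. Only 2 of the 15112 transcripts held as many, *Mat2a* among them. In order along the transcript they read as follows, with the matched letters in capitals.
Site at chr6:72434245-72434253, minus strand: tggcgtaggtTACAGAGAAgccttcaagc
Site at chr6:72433461-72433469, minus strand: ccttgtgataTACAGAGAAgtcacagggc
Site at chr6:72433282-72433290, minus strand: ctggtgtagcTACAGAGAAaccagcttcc
Site at chr6:72433167-72433175, minus strand: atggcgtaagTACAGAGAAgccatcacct
Site at chr6:72433056-72433064, minus strand: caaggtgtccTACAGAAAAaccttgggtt
Site at chr6:72432948-72432956, minus strand: gctggtgtggTACAGAGAAgccagcttgt

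The counts of *Mat2a* were divided among 3 annotated transcripts with the same ends, and their shares differed between the libraries. NM_145569, of 2805 bases, held 90.6% (interval 89.4 to 91.7) of the counts with AAV-GFP and 85.2% (83.7 to 86.5) with AAV-*Wee1-AS*. NM_001363798, which is longer at 3390 bases, held 5.62% (143 counts, interval 4.76 to 6.59) and 13.4% (337 counts, interval 12.1 to 14.8). The third transcript, NM_001363799, held 3.81% (97 counts) and 1.47% (37 counts). The long form thus took a larger share, and the main form a smaller one, beyond counting error in the library with AAV-*Wee1-AS*. These are counts shared out among overlapping transcripts by the authors' program, and error of that division is not in the intervals. *Mettl16* itself (284 and 626 counts) had a log2 ratio of 1.41 (interval 1.21 to 1.63), which was -0.11 with the trends removed. *Mat2a* overlaps *Ggcx* (4923 and 3714 counts) and *Particl* (96 and 36 counts), and it is not stated whether strand was used in counting.

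Use and clearance of the SAM products came next. *Gnmt* (gene 14711, chr17:46725664-46729211) encodes glycine N-methyltransferase, which methylates glycine to sarcosine and takes up excess SAM in hepatocytes. It had 66908 counts with AAV-GFP and 64037 with AAV-*Wee1-AS*, a log2 ratio of 0.21 (interval 0.20 to 0.23). *Gnmt* was the member that stood farthest from genes of like GC content: at 57.5% GC it lay in a GC decile with a median of -0.60, in which 1.26% of genes were above 2-fold and 17.4% below 0.5-fold. With the trends removed its log2 ratio was 1.04, a 2.06-fold higher value and the largest of the 9 genes on that scale. *Ahcy* (gene 269378, chr2:155059310-155074497), which encodes S-adenosylhomocysteine hydrolase, had 88003 and 85082 counts and a log2 ratio of 0.23 (interval 0.22 to 0.24), or 0.48 with the trends removed. *Gnmt* and *Ahcy* were thus both higher in the AAV-*Wee1-AS* library on either scale. *Ahcy* has 1 annotated transcript in the table and overlaps *Gm39966* (3 and 61 counts), while the main transcript of *Gnmt* held 97.8% of its counts in both libraries.

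*Pemt* (gene 18618, chr11:59970614-60046561) encodes phosphatidylethanolamine N-methyltransferase, which makes phosphatidylcholine by successive methylation and thereby uses SAM. It had the lowest ratio of the 9 genes, with 22403 counts (679 TPM) under AAV-GFP and 12076 counts (432 TPM) under AAV-*Wee1-AS*. The log2 ratio was -0.61 (interval -0.65 to -0.58). Genes of like GC content (54.9%) had a median of -0.49, and with the trends removed the log2 ratio of *Pemt* was 0.09. *Gnmt*, the other methyltransferase that uses SAM among the 9 genes, had a ratio on the other side of 1, and the ratio of *Gnmt* to *Pemt* in TPM was 2.91 with AAV-GFP and 5.16 with AAV-*Wee1-AS*. By counts that ratio was 1.78 times higher (interval 1.73 to 1.82), and 1.93 times higher with the trends removed. It was within 2-fold on both scales. The other pair ratios computed between 2 of the 9 genes, *Mat1a* to *Mat2a* and *Cbs* to *Cth*, did not stay on one side of 1. The remaining pairs of the 9 genes were not computed.

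**Figure D2:**
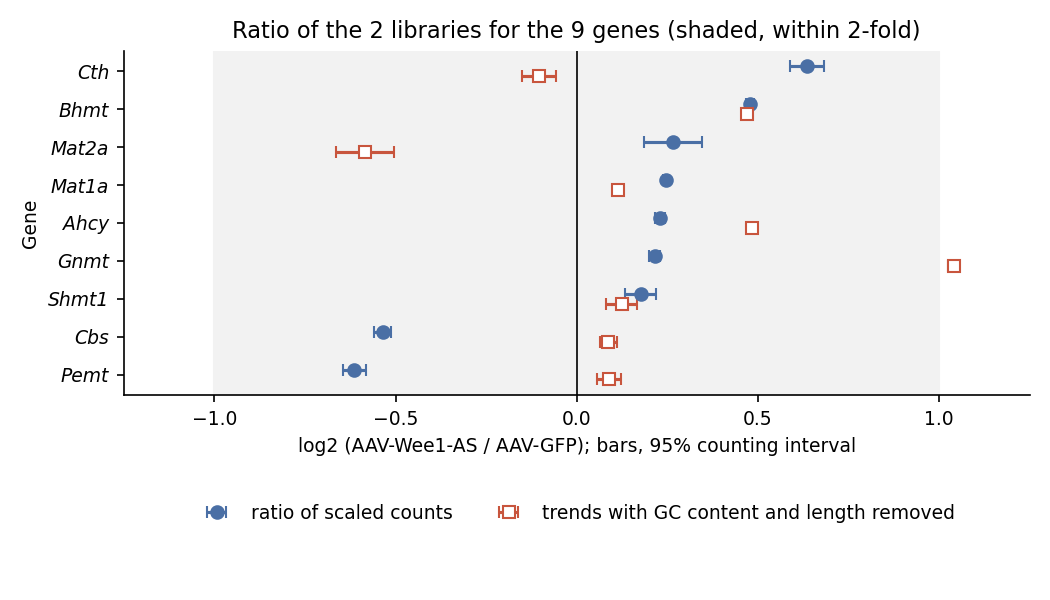
Log2 ratio of AAV-*Wee1-AS* over AAV-GFP for the 9 genes, from scaled counts (filled circles) and with the GC and length trends removed (open squares). Bars are 95% counting intervals and the shaded band is 2-fold in either direction. Only the open square of *Gnmt* (1.04) lies outside the band, and the 2 symbols fall on opposite sides of 0 for *Mat2a*, *Cth*, *Cbs* and *Pemt*.

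The starts of *Pemt* were examined because the gene has several annotated first exons. The transcript that starts at chr11:60037005 (minus strand) held 98.1% (interval 98.0 to 98.3) of the *Pemt* counts with AAV-GFP and 97.4% (97.1 to 97.7) with AAV-*Wee1-AS*. The 3 transcripts that start between 60046489 and 60046561 held 1.85% (414 counts) and 2.49% (301 counts). The 2 that start at 60040188 held 3 and 13 counts, or 0.0134% and 0.108%. Nearly all *Pemt* counts thus came from one start in both libraries, and the lower *Pemt* counts with AAV-*Wee1-AS* lay on that start. RefSeq promoter windows (GRCm38.p6, 250 bases before to 50 after a start) were given for this start and for the one that was barely used. They are printed to show how the used and the barely used start differ in sequence, in lower case with each CpG in capitals.
*Pemt* used start, chr11:60036956-60037255, minus strand: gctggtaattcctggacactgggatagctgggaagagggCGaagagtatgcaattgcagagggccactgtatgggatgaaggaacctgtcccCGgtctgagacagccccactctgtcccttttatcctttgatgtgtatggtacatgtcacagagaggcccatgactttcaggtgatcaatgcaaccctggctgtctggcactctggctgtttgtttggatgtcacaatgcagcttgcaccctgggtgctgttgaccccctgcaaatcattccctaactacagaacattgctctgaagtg
*Pemt* barely used start, chr11:60040139-60040438, minus strand: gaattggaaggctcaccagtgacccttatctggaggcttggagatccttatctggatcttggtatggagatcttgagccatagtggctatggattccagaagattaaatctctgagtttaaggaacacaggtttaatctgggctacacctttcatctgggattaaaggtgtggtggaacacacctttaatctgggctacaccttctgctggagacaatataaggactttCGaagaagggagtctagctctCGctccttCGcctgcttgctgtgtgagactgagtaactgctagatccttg

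The used *Pemt* start held 2 CpG in its 300 bases and the barely used one 3, against a median of 7 over 32851 RefSeq windows. Of the 9 genes, 7 had a window (*Ahcy*, *Bhmt*, *Cbs*, *Gnmt*, *Mat2a*, *Pemt* and *Shmt1*), and outside *Pemt* the number of CpG ran from 8 (*Bhmt*) to 34 (*Mat2a*). *Pemt* and *Mat2a* thus marked the ends of the range among these genes. The letters CCAAT, on either strand, occurred in 7 of the 8 windows, the used *Pemt* start being the exception, and in 37.4% of all windows. GGGCGG occurred in 4 of the 8 windows (*Ahcy*, *Cbs*, *Mat2a* and *Shmt1*) and in 35.7% of all, and TATAAA in 1 (*Mat2a*) and in 13.6% of all. These matches describe the letters in the windows only.

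Homocysteine is methylated back to methionine in hepatocytes by betaine or by methylfolate. *Bhmt* (gene 12116, chr13:93616891-93637758), which encodes betaine-homocysteine methyltransferase, had 133036 counts (1950 TPM) with AAV-GFP and 152805 counts (2643 TPM) with AAV-*Wee1-AS*. The log2 ratio was 0.48 (interval 0.47 to 0.49), a 1.39-fold higher value, and 0.47 with the trends removed. *Bhmt* was thus higher on both scales by nearly the same amount, but it was lower, at -0.32, where the GC content was read from its longest transcript, which is not the coding one. Its neighbour *Bhmt2* (9818 and 9860 counts) had a log2 ratio of 0.28 and the pseudogene *Bhmt-ps1* (1920 and 2078 counts) one of 0.39, and reads of these near copies may be divided between them. *Mtr*, the methionine synthase of the folate route, was scarce in both libraries (255 and 452 counts) and had a log2 ratio of 1.10 (interval 0.88 to 1.33), or -0.14 with the trends removed. The ratio of *Bhmt* to *Mtr* was 1423 and 1325 in TPM. By counts, which weigh the *Mtr* transcripts differently from TPM, it was 0.648 times as high with AAV-*Wee1-AS* (interval 0.553 to 0.757), and 1.53 times as high with the trends removed.

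*Shmt1* (gene 20425, chr11:60788897-60811265), the cytosolic serine hydroxymethyltransferase that loads one-carbon units from serine onto folate, had 9235 and 8607 counts. Its log2 ratio was 0.18 (interval 0.13 to 0.22), or 0.12 with the trends removed, the smallest ratio in size among the 9 genes by scaled counts. Its mitochondrial counterpart *Shmt2* had 19836 and 12869 counts and a log2 ratio of -0.35, or 0.34 with the trends removed. The ratio of *Shmt1* to *Shmt2* in TPM was 0.528 and 0.758. By counts it was 1.44 times higher with AAV-*Wee1-AS* (interval 1.38 to 1.49), but 0.861 times as high with the trends removed.

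Homocysteine leaves the cycle through transsulfuration. *Cbs* (gene 12411, chr17:31612623-31637233), which encodes cystathionine beta-synthase, had 37975 counts (459 TPM) with AAV-GFP and 21608 counts (308 TPM) with AAV-*Wee1-AS*. *Cth* (gene 107869, chr3:157894248-157925081), which encodes cystathionine gamma-lyase, the next enzyme, had 6400 counts (108 TPM) and 8197 counts (163 TPM). The consecutive enzymes thus moved in opposite directions, with a log2 ratio of -0.54 (interval -0.56 to -0.51) for *Cbs* and 0.63 (interval 0.59 to 0.68) for *Cth*. The ratio of *Cbs* to *Cth* in TPM was 4.24 and 1.89, and by counts it was 2.25-fold lower with AAV-*Wee1-AS* (interval 2.17 to 2.34). This contrast was not present with the trends removed. *Cbs* transcripts held 56.6% GC, in a GC decile with a median of -0.60, and *Cth* transcripts 44.2%, in a decile with a median of 1.13. With the trends removed the log2 ratios were 0.09 and -0.10, and the ratio of the ratios was 1.14. Where GC content was read from the longest transcript of each gene instead, an alternative added after seeing the data, they were -0.48 for *Cbs* and 0.02 for *Cth*, so the turn of these 2 genes rested on the choice of transcript.

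**Figure D3:**
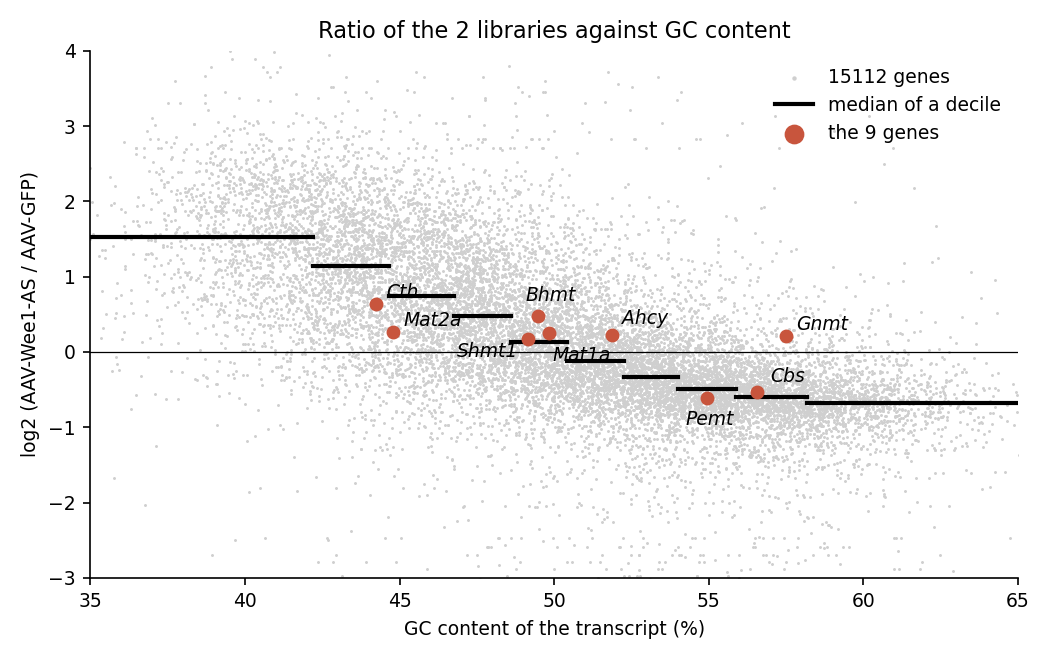
Log2 ratio of AAV-*Wee1-AS* over AAV-GFP against the GC content of the transcript, with 1 grey point per gene, black bars for the median of each decile of GC content, and the 9 genes in colour (points outside the axes are not drawn). *Cbs* and *Pemt* lie near the medians of their deciles (-0.60 and -0.49), *Mat2a* and *Cth* lie below theirs (0.74 and 1.13), and *Gnmt* lies above its own (-0.60).

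The shares of the annotated transcripts of the other genes differed less between the libraries than those of *Mat2a*. The transcripts of *Mat1a*, XM_006518450 and NM_133653, held 51.7% and 48.3% of its counts with AAV-GFP and 47.6% and 52.4% with AAV-*Wee1-AS*. The most abundant of 6 *Cbs* transcripts, NM_144855, held 30.2% and 30.3%, and the main *Shmt1* transcript, NM_009171, held 78.9% and 80.2%. The lower level of *Cbs* with AAV-*Wee1-AS* was thus spread over its transcripts, with 139 and 93.7 TPM for NM_144855, the exception being the least abundant one (8.66 and 8.68 TPM). *Cth* had a single main transcript (99.5% and 99.95%), and *Bhmt*, like *Ahcy*, had 1 in the table.

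**Figure D4:**
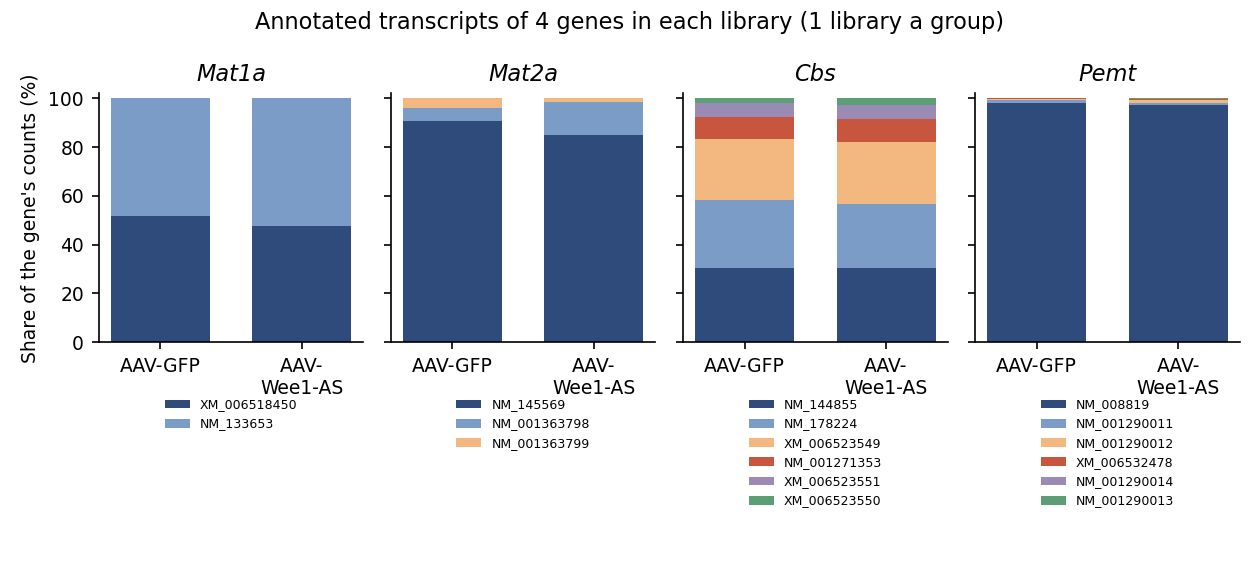
Share of the counts of *Mat1a*, *Mat2a*, *Cbs* and *Pemt* (percent) assigned to each annotated RefSeq transcript in the AAV-GFP and the AAV-*Wee1-AS* library, with 1 library per group. The share of NM_001363798 of *Mat2a* was 5.62% and 13.4%, while NM_008819 held nearly all of *Pemt* in both libraries (98.1% and 97.4%).

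Genes around the cycle were read from 8 lists with 79 genes, all with a row in the table, of which 77 passed the count minimum. Of these 77, 11 were above 2-fold and 2 below 0.5-fold, against 22.5% and 8.43% of all genes, and their median log2 ratio was 0.02. With the trends removed, 2 were above (*Nnmt* and *Slc44a1*) and 4 below (*Csad* and, named after their values were seen, *Ggh*, *Cept1* and *Sat1*). No call beyond 2-fold was made among the 5 genes of choline oxidation, which turn choline to betaine for *Bhmt* and on to glycine, and the most abundant of them, *Sardh*, had 70817 and 53170 counts and a log2 ratio of -0.14 (0.24 with the trends removed). The Kennedy pathway makes phosphatidylcholine through CDP-choline and phosphatidylethanolamine, the substrate of PEMT, through CDP-ethanolamine, and its list held 11 tested genes of both branches and of choline transport. *Etnk1* (an ethanolamine kinase, 1.39) and *Slc44a1* (a choline transporter, 1.29) were above 2-fold and none was below 0.5-fold. *Slc44a1* was at 1.05 with the trends removed and *Etnk1* at 0.03. The most abundant gene of the list, *Pcyt2*, of the CDP-ethanolamine branch, had 27277 and 14985 counts and a log2 ratio of -0.59 (0.14 with the trends removed). *Chpt1*, a cholinephosphotransferase of the CDP-choline branch, named after its values were seen, had 7928 and 8540 counts and a log2 ratio of 0.38 (-0.79 with the trends removed).

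*Pcyt1a*, which encodes the rate-limiting enzyme of the CDP-choline route, had 3857 and 5122 counts and a log2 ratio of 0.69, opposite to *Pemt*. The ratio of *Pemt* to *Pcyt1a*, the enzymes of the competing routes to phosphatidylcholine, was 27.8 with AAV-GFP and 11.3 with AAV-*Wee1-AS* in TPM. By counts it was 2.46-fold lower with AAV-*Wee1-AS* (interval 2.35 to 2.58). With the trends removed the log2 ratios of *Pemt* and *Pcyt1a* were 0.09 and 0.08 and the ratio of the ratios was 1.00, so this difference was present in TPM and in scaled counts but not with the trends removed.

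Downstream of *Cbs* and *Cth*, 10 of 11 genes of taurine, glutathione and sulfide metabolism had a negative log2 ratio, against 50.1% of all genes, with a median of -0.41. Once the trends were removed, 8 of the 11 were negative, against 50.3% of all genes, and the median was -0.26. Other lists were as one-sided on that scale. Negative were 0 of the 5 genes of choline oxidation, 2 of 12 SAM-dependent methyltransferases and 5 of 6 genes of SAM supply. *Csad*, which makes hypotaurine, had 6693 and 1992 counts and a log2 ratio of -1.47, or -1.16 with the trends removed. *Gss*, the glutathione synthetase, had 8466 and 3334 counts and a log2 ratio of -1.07, or -0.44 with the trends removed. These were the 2 genes of the list below 0.5-fold, and its most abundant gene, *Cdo1*, the cysteine dioxygenase, had 61708 and 47650 counts and a log2 ratio of -0.10 (-0.26 with the trends removed). *Csad* lay below 0.5-fold on both scales.

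Among 12 other SAM-dependent methyltransferases, *Nnmt* (nicotinamide, 3975 and 7208 counts, 1.14), *Tpmt* (thiopurines, 1.47) and *Hnmt* (histamine, 1.45) were above 2-fold and none was below 0.5-fold. With the trends removed, *Nnmt* was at 1.28, *Tpmt* at 0.43 and *Hnmt* at 0.11. *Nnmt* was thus, with *Gnmt* and *Slc44a1*, a gene above 2-fold on that scale. The most abundant gene of this list, *Mettl7b*, had a log2 ratio of -0.43 (0.19 with the trends removed). Of the 12 genes, 6 were negative by scaled counts and 2 with the trends removed, against 50.1% and 50.3% of all genes. Of 6 genes of SAM supply and its regulation, *Mettl16* (1.41) and *Ahcyl1* (1.07), an AHCY-like protein, were above 2-fold. Neither was so with the trends removed (-0.11 and 0.46). Of the 6 genes, 1 was negative by scaled counts, against 50.1% of all genes, and 5 with the trends removed, against 50.3%. *Adk*, the adenosine kinase that clears the adenosine released by AHCY and the most abundant of them, was at 0.61 (-0.30 with the trends removed). Of 4 remethylation genes *Mtr* (1.10) was above 2-fold, with *Bhmt2* the most abundant.

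Of 17 genes of the folate cycle and glycine cleavage, *Dld* (1.61, or 0.43 with the trends removed), a subunit shared with other dehydrogenase complexes, was above 2-fold. The most abundant of them, *Aldh1l1*, the formyltetrahydrofolate dehydrogenase, was at 0.15, or 0.66 with the trends removed. Of 11 genes of polyamine synthesis and methionine salvage, *Amd1* (1.66) and its close copy *Amd2* (1.26), SAM decarboxylases whose reads may be divided between them, were above 2-fold. They were at 0.43 and 0.01 with the trends removed, while *Adi1*, the most abundant, was at -0.00483 (-0.38 with the trends removed).

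**Figure D5:**
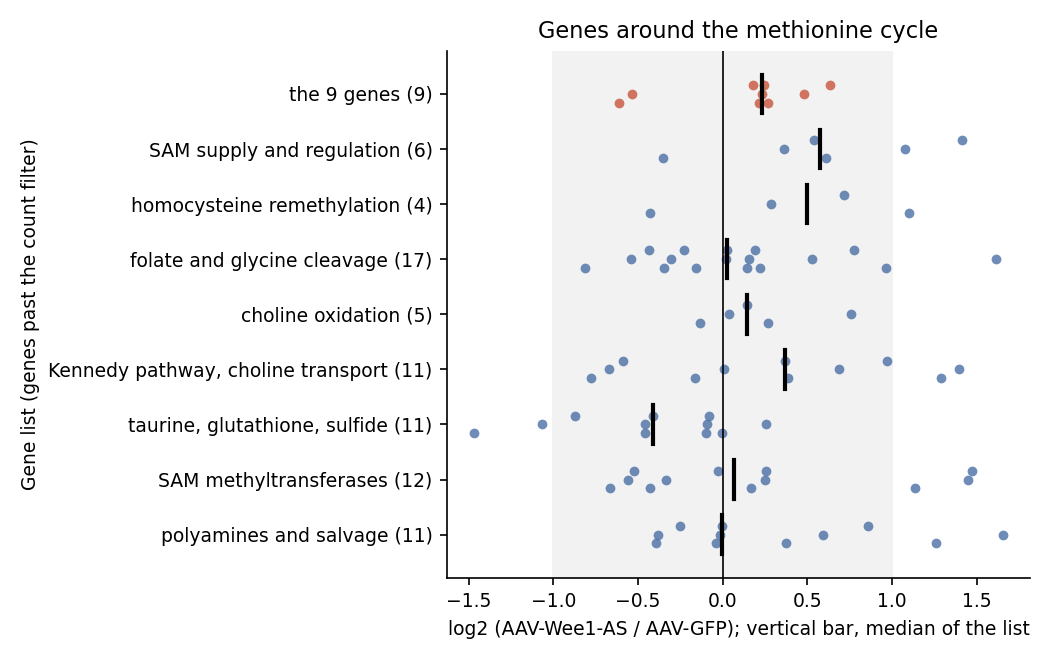
Log2 ratio of AAV-*Wee1-AS* over AAV-GFP for each gene of the 8 lists around the methionine cycle and for the 9 genes (top row), with the number of genes past the count minimum in parentheses, a vertical bar at the median of each list, and the band within 2-fold shaded. The 9 genes all lie in the band, and the list of taurine, glutathione and sulfide genes has its median at -0.41 with 2 genes below the band.

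Hepatocyte markers were high in both libraries, with a summed TPM of 93041 and 100512 over 11 genes, of which 6 were higher with AAV-*Wee1-AS* and 5 lower. Removal of the trends left 1 of the 11 lower and moved their median log2 ratio from 0.002 to 0.25. The higher sum lay with *Alb* (37459 and 53289 TPM), and *Apob* was above 2-fold (a log2 ratio of 1.83, or 0.13 with the trends removed). Zonal markers summed to 11049 and 12451 TPM (10 pericentral genes) and to 12157 and 11990 TPM (10 periportal genes), with 4 of the pericentral and 6 of the periportal genes lower with AAV-*Wee1-AS*, or 3 and 4 with the trends removed. *Slc1a2* (1.56), *Tbx3* (1.01) and the periportal *Cps1* (1.22) were above 2-fold by log2 ratio, and only *Tbx3* (1.02) was so with the trends removed. The periportal median turned from -0.04 to 0.42. Of 5 erythroid markers all were lower, with sums of 3357 and 1789 TPM and a median log2 ratio of -0.88, which was 0.02 with the trends removed. Each list of other liver cells held genes of both directions, in unequal numbers for most of them. For 8 Kupffer cell markers the sum was 428 and 332 TPM, but 4 genes were higher and 4 lower, and *Vsig4* (2.89-fold), *Timd4* (2.67-fold) and *Marco* (3.07-fold) were above 2-fold, of which *Marco* alone was so with the trends removed (log2 ratios of 0.86, 0.66 and 2.19). For 8 stellate cell markers it was 168 and 130 TPM, with *Pdgfrb*, *Col1a1*, *Col3a1* and *Acta2* below 0.5-fold and *Lrat* above 2-fold. With the trends removed *Lrat* was at 0.03 and *Pdgfrb* at -0.89, and *Col1a1*, *Col3a1* and *Acta2* stayed below 0.5-fold. Of the 8 genes, 5 were lower by scaled counts (median -0.82) and 7 with the trends removed (median -0.73), against 50.1% and 50.3% of all genes. Sums were 205 and 175 TPM for 8 endothelial markers (5 lower), 44.5 and 38.1 TPM for 6 cholangiocyte markers (4 lower), and 6.18 and 5.10 TPM for 6 lymphocyte markers (5 lower). Without the trends, 6 endothelial, 1 cholangiocyte and 5 lymphocyte markers were lower, and the cholangiocyte median turned from -0.18 to 0.27. Of these lists only the lymphocyte one had calls past 2-fold (*Ptprc* above, *Nkg7* below), and neither remained with the trends removed (-0.25 and -0.40). None of these marker genes was at 0 in either library, and the single markers were named after their values were seen. In bulk liver, fewer cells of a type and less RNA per cell cannot be told apart. Nuclear-retained RNAs stood apart, with 148 and 4652 counts for *Malat1* and 380 and 2390 for *Neat1*. Their log2 ratios were 5.23 and 2.92, or 3.69 and 2.18 with the trends removed. Of the same list, *Kcnq1ot1* had 0 and 25 counts, and *Meg3*, below the count minimum, had 7 and 5. The part of these differences in the values of the 9 genes was not tested.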

How the data were processed

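Poly-A liver RNA of 2 groups, 1 library each, was sequenced from a stranded kit with paired reads of 100 bases. The authors deposited 1 table of 129299 RefSeq transcripts with estimated counts, FPKM values and TPM values per library. The deposited estimated counts are whole numbers that track FPKM times transcript length, shared out among overlapping transcripts. The submitters' processing notes list Trimmomatic 0.38, HISAT2 2.1.0, SAMtools 1.9, StringTie 2.1.3b and the build mm10, without their roles. Pooling of mice is not stated.

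Counts were summed per gene symbol and scaled by TMM (edgeR 4.0.16 in R 4.3.3, factors 1.03 and 0.975) over the 15857 genes that reached 10 counts in either library, and log2 ratios were taken with a prior count of 2. TPM was used for levels. Calls were made past 2-fold (2 and 0.5). The study used the same fold limits together with a p-value limit, which could not be applied to 1 library per group. Intervals are exact (Clopper-Pearson, 95%), from the counts of a gene in both libraries, and for pairs of genes they are exact conditional intervals of the odds ratio of 4 counts. Depth limits precision only by counting error. GC content was read from the GENCODE vM21 transcript paired with the leading curated RefSeq transcript of a gene, and otherwise from a coding or the longest one (15112 genes, 13269 of them paired). Trends against GC content and against the longest transcript's length were removed by lowess fits (span 0.3, 5 cycles, statsmodels 0.14.6). Promoters came from RefSeq (GRCm38.p6). The ratio of a gene, its counting interval and the removal of a GC trend were tested on simulated counts, and the other steps were not. Python 3.11.15, numpy 2.4.6, scipy 1.17.1, pandas 2.3.3 and matplotlib 3.10.9 were used.

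The 9 genes, the 8 pathway lists and the 10 marker lists were chosen with earlier results of these data known. Named in the text are the 9 genes, pathway genes past 2-fold that reached 100 counts in either library, the most abundant gene by TPM of each pathway list, and genes of the pair ratios. Genes that overlap or resemble the 9 genes were named in addition. They include *Gm38498* (22 and 16 counts), which overlaps *Pemt* and had a log2 ratio of -0.16. Alternatives were other scalings (library totals, DESeq2 1.42.0 size factors, totals from which the 20 most abundant genes were left out, the upper quartile), other count minimums, a prior count of 0.5, FPKM and TPM with a pseudocount of 1, other choices of transcripts, and removal of one or both trends. Ept1, Sqrdl, Tmt1a and Tmt1b, also on the lists, are other names of *Selenoi*, *Sqor*, *Mettl7a1* and *Mettl7b* and were counted once, under the latter. The hepatocyte marker Tf was not analysed here. Leaving out a library or a paired fit was not possible with 1 library per group.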

Additional observations from a re-analysis of the deposited data

How the results depend on the processing

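No paired analysis was possible because each group has 1 library. Depth was not the limit for the 9 genes, each with at least 2522 counts per library, while the spread between mice is unknown. Removal of the trends with GC content and length turned the direction of 4 of the 9 genes, and an alternative chosen after seeing the data, which reads GC content from the longest transcript of a gene, that of 3. The other 13 alternatives turned none. Over all 15 alternatives the log2 ratio ran from 0.0829 to 0.40 for *Mat1a*, -0.71 to 0.30 for *Mat2a*, 0.0818 to 1.07 for *Gnmt*, 0.0964 to 0.54 for *Ahcy*, -0.32 to 0.61 for *Bhmt*, -0.67 to 0.0875 for *Cbs*, -0.10 to 0.81 for *Cth*, -0.75 to 0.12 for *Pemt* and 0.0435 to 0.30 for *Shmt1*. The upper quartile moved the median of all genes to -0.13.

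With the trends with GC content and length removed, the log2 ratio was -0.58 for *Mat2a*, 0.0875 for *Cbs*, -0.10 for *Cth* and 0.0892 for *Pemt*, the median of the 9 genes was 0.11, 1 of the 9 genes (*Gnmt*) and 994 of all genes were above 2-fold, and 2 pathway genes were above and 4 below. With GC content from the longest transcript, it was -0.71 for *Mat2a*, -0.32 for *Bhmt* and 0.12 for *Pemt*, the median was 0.12, 1 of the 9 genes (*Gnmt*) and 1055 of all genes were above 2-fold, and 1 pathway gene was above and 5 below. Removal of the length trend alone gave a median of 0.27, with 6 pathway genes above and 4 below.

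The median of the 9 genes was 0.16 with library totals, 0.10 with the upper quartile, 0.17 without the 20 most abundant genes in the totals, 0.21 with no count minimum and 0.26 with curated transcripts only. With FPKM it was 0.17, with 1029 of all genes above 2-fold, 307 below and 6 pathway genes above. With TPM it was 0.19, with 1608 above and 438 below. The number of all genes below 0.5-fold was 2126 with no count minimum, 874 with at least 10 counts in both libraries and 803 with at least 50 in one. The cause of these differences was not tested.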
